A study of Mus musculus with 71 samples.

Results

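The insulin and IGF signalling genes described here are 10 mouse genes chosen by symbol, Igf1, Insr, Igf1r, Irs1, Irs2, Pik3ca, Pik3r1, Akt2, Foxo1 and Foxo3. All 10 were found among the 57010 rows of the count table and all 10 were among the 30141 genes tested. They were measured in hippocampus of 71 male C57BL/6J mice on 3 regimens that began at 3 weeks of age and lasted 12 weeks. NC ad lib mice had normal chow at all times and HFS ad lib mice had a high fat, high sucrose food at all times. HFS TRF mice ate the same high fat, high sucrose food, at all times for 8 weeks and then under time-restricted feeding, with food from zt11 to zt1, for the last 4 weeks (zt counts hours from lights on). Each regimen was sampled in 4 conditions. In a first experiment mice were taken from the home cage at zt3 (HC zt3) or 1 h after a 10 min training session of object recognition memory (ORM+1h), and in a second experiment from the home cage at zt15 (HC zt15) or 12 h after training (ORM+12h). Each group held 6 mice, except HFS TRF at HC zt15 with 5, and chow-fed mice under TRF were not analysed here. Mice were housed 6 to a cage at the start, and which of the mice measured shared a cage is not given in the sources used here. The regimens are written NC, HFS and TRF from here on, with HFS alone standing for free access.

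The mRNA was purified by pS6-TRAP, in which ribosomes are immunoprecipitated with an antibody to phosphorylated ribosomal protein S6. Insulin and IGF-1 bind related receptor tyrosine kinases, which phosphorylate IRS adaptor proteins. These recruit PI3-kinase and thereby activate AKT, which restrains FoxO transcription factors in the cytoplasm and, through mTOR and S6 kinase, leads to phosphorylation of S6 itself. The purification therefore draws on the last step of the same pathway. In hippocampus, insulin and IGF-1 receptors are found on neurons and glia and are known for roles in synaptic plasticity, energy use and survival.

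Total counts per mouse ranged from 34698914 to 62758570. The tissue holds many cell types, and the mRNA was captured through phosphorylated S6. Fewer cells of a type, less RNA per cell and a smaller captured share of it therefore cannot be told apart in any value below. Neuron markers were high in every mouse, with 9430 to 14100 CPM (counts scaled to library size, with TMM normalization) summed over 6 genes, and endothelial markers were near absent, with 1.45 to 12.3 CPM over 6 genes, Tek and Ly6c1 at a count of 0 in some mice. Astrocyte markers summed to 666 to 3190 CPM. Markers of choroid plexus, which is not part of hippocampus proper, summed to 97.8 to 18700 CPM, and 1 of them, Kl, had at least 1132 counts in every mouse. The library of HFS HC zt15 replicate 2 stood apart with 456 CPM of summed microglia markers, against 42.3 to 110 CPM in the other mice, and called results of the members that include it were also computed without it. A gene was called when its p from the quasi-likelihood test of edgeR, adjusted over all genes tested by the method of Benjamini and Hochberg, was under 0.05, and every adjusted p below is from that test unless another is named. The mice of a group are separate animals, and any part of shared cages in the differences was not tested.

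Irs1 and Irs2, the adaptors described below by time of day and after training, were the members with an E-box in the promoter. A stretch around the E-box, CACGTG, is shown for both for that reason. The 250 bases before each RefSeq start were read for the 9 members present in that table (13 windows on build GRCm38.p6, more than 1 for Akt2 and Pik3r1), and the stretches were placed on GRCm39 by exact match. Both are printed 5′ to 3′ on the strand of the gene with the E-box in capitals.
Irs2: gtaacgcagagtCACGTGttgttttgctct
Irs1: cagaggctccgtCACGTGttttgctcctct
The Irs2 stretch lies at chr8:11058956-11058985 on the minus strand, with its E-box starting 44 bases before the RefSeq start, and the Irs1 stretch at chr1:82269258-82269287 on the minus strand, with its E-box starting 115 bases before. In the GENCODE annotation of GRCm39, whose starts lie further upstream, both fall in an untranslated part of an exon of the gene. The E-box was present in 6.02% of all 32851 windows. The cAMP response element TGACGTCA, present in 1.55% of windows, and the FoxO element TGTTTAC, read on both strands and present in 3.17%, were in no window of a member. The AP-1 letters TGACTCA, also read on both strands and present in 4.46%, were in the window of Pik3ca. These matches are a description of the letters and not of binding.

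The ligand gene Igf1 (ENSMUSG00000020053, chromosome 10, 87693642 to 87772904) was barely present in the purified mRNA. Its level per exon length was 0.125 ± 0.0383 RPKM (SD, n = 71), from 30 to 150 counts per mouse, and its spread of 30.7% (coefficient of variation) was the widest of the 10 genes. Both receptor genes were low. Insr (ENSMUSG00000005534, chromosome 8, 3172061 to 3329647), the insulin receptor, stood at 2.01 ± 0.232 RPKM, and Igf1r (ENSMUSG00000005533, chromosome 7, 67601518 to 67883416), the receptor of IGF-1, at 2.67 ± 0.388 RPKM.

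The adaptors differed widely from each other. Irs2 (ENSMUSG00000038894, chromosome 8, 11034681 to 11059499) was the highest of the 10 genes at 21.1 ± 3.82 RPKM, and Irs1 (ENSMUSG00000055980, chromosome 1, 82210822 to 82269338) stood at 2.13 ± 0.322 RPKM. Among the kinase genes, Pik3ca (ENSMUSG00000027665, chromosome 3, 32451820 to 32522635), a catalytic subunit of PI3-kinase, stood at 5.00 ± 0.598 RPKM and Pik3r1 (ENSMUSG00000041417, chromosome 13, 101817071 to 101904725), its regulatory partner, at 4.65 ± 0.505 RPKM. Akt2 (ENSMUSG00000004056, chromosome 7, 27284378 to 27340262), the AKT isoform best known for insulin-driven glucose uptake, stood at 5.72 ± 0.915 RPKM. The transcription factor genes Foxo3 (ENSMUSG00000048756, chromosome 10, 42057837 to 42154007) and Foxo1 (ENSMUSG00000044167, chromosome 3, 52175757 to 52260642) stood at 8.70 ± 1.22 and 4.34 ± 0.71 RPKM.

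**Figure D1:**
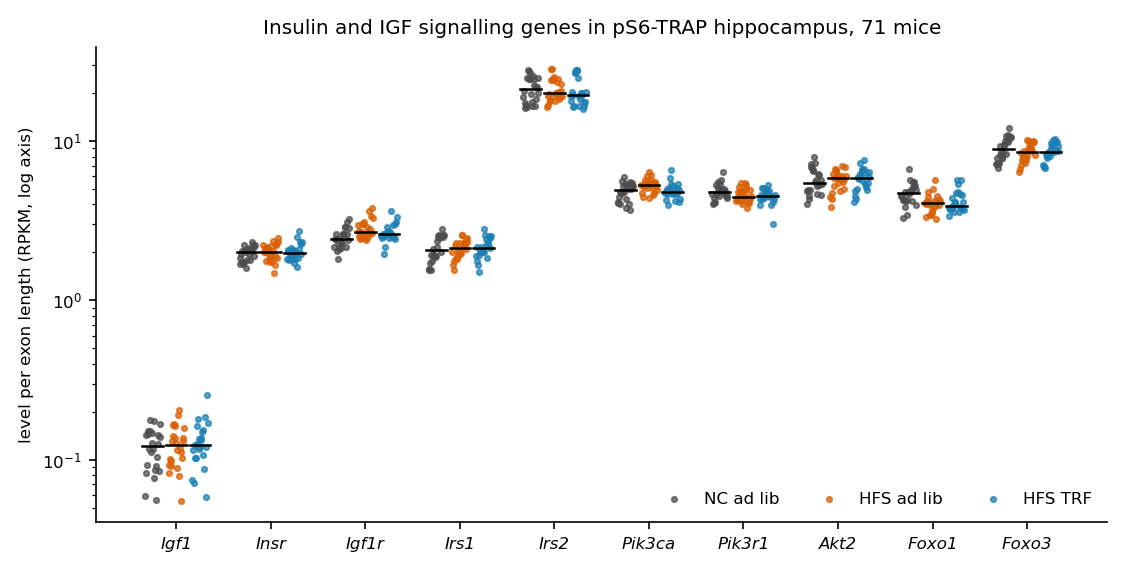
Level per exon length (RPKM, log axis) of the 10 genes in each mouse (points) by regimen, with the median as a bar. Irs2 lies above and Igf1 below all other genes, and the 3 regimens overlap for every gene.

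In descending order the levels per exon length were Irs2, Foxo3, Akt2, Pik3ca, Pik3r1, Foxo1, Igf1r, Irs1, Insr and Igf1. The neighbours Akt2 and Pik3ca, Pik3ca and Pik3r1, Pik3r1 and Foxo1, Igf1r and Irs1, and Irs1 and Insr differed by less than the sum of their SDs. Of the 10 genes, 8 overlap an annotated gene on the other strand (all but Pik3ca and Pik3r1), and the strand setting of the counting is not given in the sources used here, so that reads of both partners may be in a count. On the same strand Foxo3 overlaps 3 annotated genes, Pik3r1 2, and Pik3ca, Igf1r and Foxo1 1 each. By the medians drawn in the plot of levels, the order was the same in each regimen.

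The first question was whether the HFS diet altered these genes when food was always available. Averaged over the 4 conditions, Igf1r was higher and Foxo1 lower in HFS than in NC mice, and the other 8 genes did not pass the test. The 2 calls among 10 members compare with 2.61% of all genes tested (1.09% higher and 1.53% lower). The median log2 fold change of the 10 members was 0.00, as it was over all genes.

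Igf1r lay between 35.8 and 64.5 CPM in the 24 NC mice, with a median of 47.8, and between 47.3 and 75.4 CPM in the 24 HFS mice, with a median of 53.2. The ranges overlapped, though 23 of 24 HFS mice were above the NC median. The log2 fold change was 0.20 (SE 0.05, 95% interval 0.10 to 0.29, adjusted p = 0.0202), a fold of 1.15.

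By condition, Igf1r rested on small differences in the same direction that did not pass alone. In home cage mice at zt3 the NC values were 35.8 to 51.4 CPM (median 45.4) and the HFS values 48.1 to 58.8 CPM (median 53.0), with a log2 fold change of 0.25 (adjusted p = 0.588). At ORM+1h the values were 41.4 to 47.7 CPM (median 45.7) and 48.4 to 61.1 CPM (median 55.5), with a log2 fold change of 0.29 (adjusted p = 0.496). Only in this condition did the ranges not overlap, and in this comparison 0% of all genes tested were called. The share of all genes with ranges that do not overlap was not computed, for this comparison or for those below. The log2 fold change was 0.07 at HC zt15 (adjusted p = 0.867) and 0.18 at ORM+12h (adjusted p = 0.274).

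Foxo1, a transcription factor that insulin signalling keeps out of the nucleus, lay between 30.7 and 61.9 CPM in NC mice (median 43.8) and between 30.0 and 52.9 CPM in HFS mice (median 37.8). Of the 24 HFS mice, 3 were above the NC median. Its log2 fold change was -0.20 (SE 0.05, 95% interval -0.30 to -0.09, adjusted p = 0.0337). At HC zt3 the medians were 39.6 CPM in NC and 38.4 CPM in HFS mice, and the log2 fold change was 0.01 (adjusted p = 1). The differences lay in the other 3 conditions, -0.24 at ORM+1h (adjusted p = 0.496), -0.30 at HC zt15 (adjusted p = 0.340) and -0.25 at ORM+12h (adjusted p = 0.174), none of which passed.

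**Figure D2:**
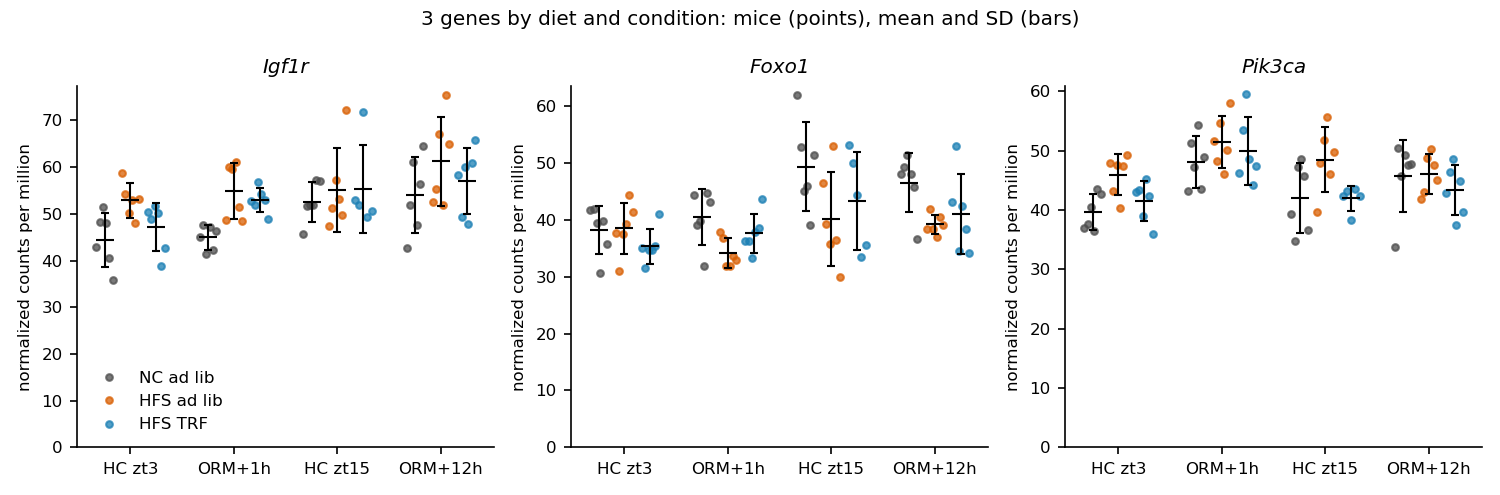
Normalized CPM of Igf1r, Foxo1 and Pik3ca in each mouse (points) by condition and regimen, with the group mean and SD in black and the axis from 0. Igf1r at ORM+1h is the panel in which HFS mice (48.4 to 61.1 CPM) clear NC mice (41.4 to 47.7 CPM).

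The Igf1r call held without each mouse in turn, with adjusted p up to 0.0399, and was 0.20 (adjusted p = 0.0185) without the HFS HC zt15 mouse high in microglia markers. Foxo1 was -0.19 (adjusted p = 0.0377) without that mouse. The Foxo1 call was lost without any of 10 mice, which were replicate 1 of NC HC zt3 and HC zt15, replicates 1, 5 and 6 of NC ORM+1h, replicate 4 of NC ORM+12h and of HFS ORM+1h, replicate 2 of HFS HC zt3 and replicates 3 and 6 of HFS HC zt15, with adjusted p of 0.0505 to 0.0631. Dentate granule cell markers were not called between these regimens (0 of 4, median log2 fold change -0.10, summed level 121 to 296 CPM in NC and 104 to 258 CPM in HFS mice), nor were astrocyte markers (0 of 6, median -0.15, 883 to 3190 and 707 to 2960 CPM), whereas 3 of 6 microglia markers were higher in HFS mice (median 0.45, 42.3 to 105 and 57.6 to 456 CPM). Without the mouse high in these markers 0 of 6 were called (median 0.23, HFS mice at 57.6 to 99.5 CPM). With a dentate granule cell score as a covariate Igf1r stood at 0.18 (adjusted p = 0.0506) and Foxo1 at -0.15 (adjusted p = 0.123), and with an astrocyte score at 0.18 (adjusted p = 0.0386) and -0.16 (adjusted p = 0.0713). With the dentate score Pik3ca was the member called instead (0.16, adjusted p = 0.0350).

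Pik3ca came next, at 33.8 to 54.4 CPM in NC (median 44.7) and 39.7 to 58.0 CPM in HFS mice (median 47.9). The log2 fold change was 0.13 (SE 0.04, adjusted p = 0.0636), and the DESeq2 Wald test gave 0.14 with an adjusted p of 0.0238. Its partner Pik3r1 had a log2 fold change of -0.07 (95% interval -0.15 to 0.01, adjusted p = 0.436), Foxo3 -0.08 (adjusted p = 0.178), and the adaptors Irs1 and Irs2 -0.01 each, with intervals of -0.09 to 0.07 for both. For Insr the interval was -0.06 to 0.12 and for Akt2 -0.09 to 0.10, whereas the low counts of Igf1 left an interval of -0.20 to 0.30.

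Within single conditions, 1 of the 40 tests of members on HFS against NC passed. Over all genes tested, 0% were called at HC zt3, 0% at ORM+1h, 0.063% at HC zt15 and 2.27% at ORM+12h (1.51% lower). Foxo3, a FoxO factor with many targets in common with Foxo1, was at 91.6 to 111 CPM (median 97.6) in NC and 75.8 to 91.8 CPM (median 87.0) in HFS mice at ORM+12h. Of the 6 HFS mice, 5 were below every NC mouse. The log2 fold change was -0.22 (SE 0.06, adjusted p = 0.0429).

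This Foxo3 call was not stable. It was lost without any of 10 of the 12 mice (all but NC replicate 1 and HFS replicate 4), with adjusted p of 0.0505 to 0.129, and the adjusted p was 0.170 when only those groups were fitted. Dentate granule cell markers, with which Foxo3 was correlated at r = 0.72 over the 71 mice, had a median log2 fold change of -0.29 in that comparison with 0 of 4 called, at 208 to 296 CPM in NC and 200 to 258 CPM in HFS mice, and with their score as a covariate the Foxo3 difference was -0.15 (adjusted p = 0.209). Choroid plexus markers lay at 261 to 3710 CPM (median 375) in these NC and 180 to 16600 CPM (median 5390) in these HFS mice. Foxo3 stood at -0.20 with their score (adjusted p = 0.0833) and at -0.17 with the astrocyte score (adjusted p = 0.0815).

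Around these members, a wider list of 75 pathway genes (ligands, receptors, IGF-binding proteins, adaptors, PI3-kinase and AKT subunits, brakes, mTOR and S6 genes, glucose handling, and FoxO factors and targets) had all but Ins1, 74 genes, tested. None of the 74 was called in the comparison over 4 conditions by edgeR's test, with 15 at an unadjusted p under 0.05, and the median log2 fold change was 0.01. The share of all genes at an unadjusted p under 0.05 was not computed, here or below. The DESeq2 Wald test called 4 of the 74 higher and 2 lower, and gave 9 of them no adjusted p. Over all genes it called 1284 of 15532 in that comparison. At ORM+12h, where 2.27% of all genes tested were called (1.51% lower), 3 of 74 were lower in HFS mice and 0 higher. They were Phlpp1, a phosphatase that dephosphorylates AKT (-0.38, adjusted p = 0.00415), Pdpk1, the kinase that activates AKT (-0.25, adjusted p = 0.0227), and Sesn1, a sestrin that limits mTOR complex activity (-0.27, adjusted p = 0.0460). Any part of the marker differences given above in these genes was not tested.

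At HC zt15 the only call in the wider list was Inpp5d, a lipid phosphatase of blood and microglial cells that opposes PI3-kinase, with a log2 fold change of 1.10 (adjusted p = 0.0468). In HFS replicate 2, the mouse high in microglia markers, Inpp5d was at 26.7 CPM, against 3.44 to 6.28 CPM in the other 5 HFS and 3.13 to 4.5 CPM in the 6 NC mice. Without it the log2 fold change was 0.28 (adjusted p = 0.555), and the number of genes called in that comparison went from 19 to 0.

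The second question was whether the feeding schedule altered the genes on the same food. None of the 10 members was called between TRF and HFS mice over the 4 conditions, where 0% of all genes tested were called by edgeR, and the DESeq2 Wald test called 0 members as well. At an unadjusted p under 0.05 there was 1, Pik3ca. It lay between 39.7 and 58.0 CPM in HFS (median 47.9) and between 35.9 and 59.6 CPM in TRF mice (median 43.3), with a log2 fold change of -0.12 (95% interval -0.21 to -0.04, adjusted p = 0.331).

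The genes that differed with the diet were not called between schedules. Igf1r stood at a median of 51.8 CPM in TRF mice (38.9 to 71.9), between those of the other regimens, and its log2 fold change against HFS was -0.08 (95% interval -0.18 to 0.02, adjusted p = 0.757). Foxo1 had a median of 36.2 CPM (31.6 to 53.2) and a log2 fold change of 0.05 (95% interval -0.06 to 0.16, adjusted p = 1). For 8 of the 10 members, all but Igf1 and Pik3ca, the interval of the schedule difference stayed within -0.18 and 0.16.

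**Figure D3:**
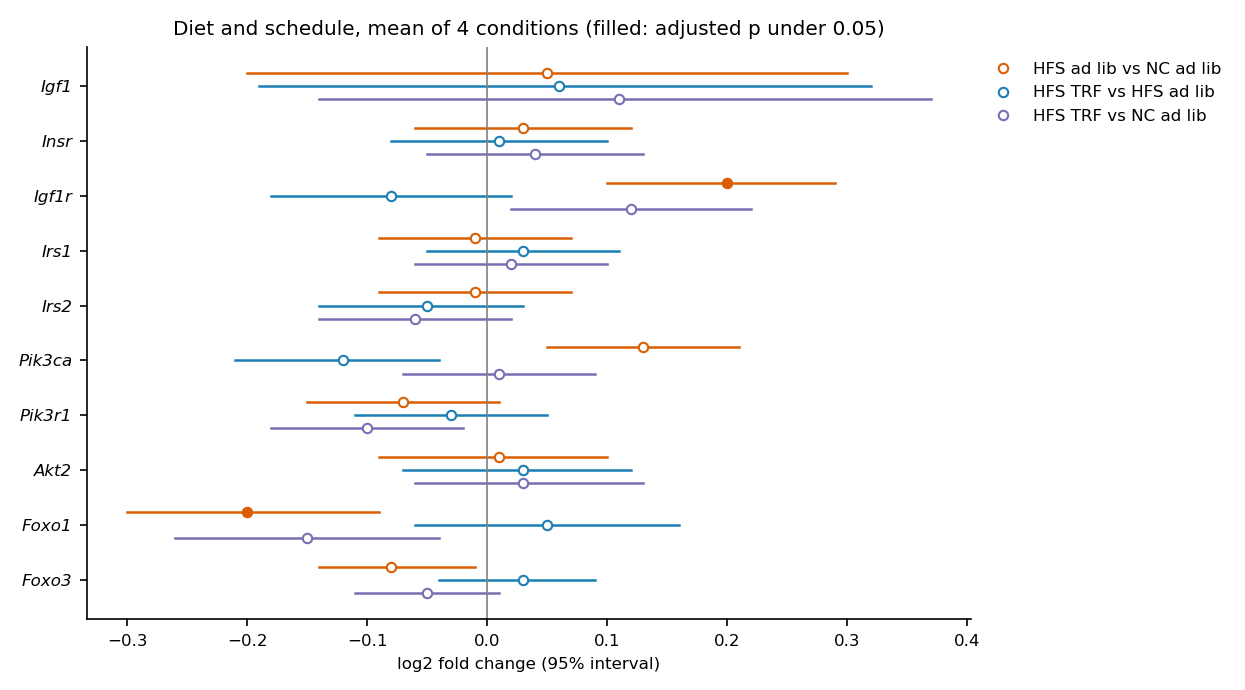
Log2 fold change of the 10 genes with 95% interval for the 3 comparisons of regimens, averaged over 4 conditions (filled points have an adjusted p under 0.05). Igf1r (0.20) and Foxo1 (-0.20) in HFS against NC are the filled points, and the 2 comparisons that share a regimen share its mice.

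Within conditions the schedule gave 0 calls among the members, with 0% of all genes called at HC zt3, ORM+1h and HC zt15 and 0.00664% at ORM+12h. The number at an unadjusted p under 0.05 was 0, 0, 1 and 0 in that order, the 1 being Pik3ca at HC zt15 (-0.21, adjusted p = 0.265), and the DESeq2 Wald test again called 0. The median log2 fold change of the members was 0.02 over the 4 conditions and lay between -0.05 and 0.02 within them, against 0.00 over all genes. Of the 74 wider pathway genes, 0 were called in any of these 5 comparisons, with 9 at an unadjusted p under 0.05 over the 4 conditions, and the DESeq2 Wald test called 1, lower in TRF mice at HC zt15, and 0 in the other 4 comparisons. At HC zt15 DESeq2 called 56 of 22543 genes. The HFS mouse high in microglia markers is in that comparison. The median log2 fold change of these markers was -0.98 with it and 0.02 without it. The DESeq2 call was not computed without that mouse.

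Against NC, TRF mice differ in both food and schedule, and the same NC mice serve as in the first comparison. No member was called over the 4 conditions, where 0.269% of all genes were called by edgeR's test, and 3 had an unadjusted p under 0.05. These were Igf1r (0.12, 95% interval 0.02 to 0.22, adjusted p = 0.234), Pik3r1 (-0.10, 95% interval -0.18 to -0.02, adjusted p = 0.215) and Foxo1 (-0.15, 95% interval -0.26 to -0.04, adjusted p = 0.166). The DESeq2 Wald test called 0 of the 10. Side by side, the differences from NC were 0.20 and 0.12 for Igf1r, -0.20 and -0.15 for Foxo1, and 0.13 and 0.01 for Pik3ca, in HFS and TRF mice in that order.

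Within conditions 0 members were called between TRF and NC, with 0% of all genes called at HC zt3, ORM+1h and HC zt15 and 8.78% at ORM+12h. At an unadjusted p under 0.05 there were 0, 1, 1 and 2 members in that order. At ORM+12h Foxo3 was at 79.5 to 95.3 CPM (median 89.0) against 91.6 to 111 CPM in NC mice, with a log2 fold change of -0.18 (adjusted p = 0.0533, and 0.0418 in the DESeq2 Wald test), and Irs2 at 117 to 150 CPM (median 130) against 123 to 183 CPM (median 154), with -0.20 (adjusted p = 0.12). At ORM+1h Igf1r was again without overlap, at 48.9 to 56.8 CPM against the same 41.4 to 47.7 CPM in NC mice, with a log2 fold change of 0.23 (adjusted p = 0.774).

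In that ORM+12h comparison 9 of the 74 wider pathway genes were called, 3 higher and 6 lower, beside 8.78% of all genes tested. Those with the smallest adjusted p were, on the higher side, the AKT isoform Akt1 (0.25, adjusted p = 0.00308), the FoxO factor Foxo4 (0.41, adjusted p = 0.00773) and the IGF-binding protein Igfbp5 (0.40, adjusted p = 0.0358). On the lower side they were Pdpk1 (-0.38, adjusted p = 0.000109), Phlpp1 (-0.40, adjusted p = 0.000191) and Bcl6, a transcriptional repressor counted among FoxO targets (-0.40, adjusted p = 0.00302). Oligodendrocyte markers moved in the same comparison, 3 of 6 of them called higher, at 1140 to 1330 CPM in TRF against 818 to 1130 CPM in NC mice, and 1 of 4 dentate granule cell markers was called higher (median -0.28). Their part was not tested.

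The third question was how mice 1 h after a training session differed from home cage mice at zt3. No group was only handled or placed in the test arena without objects, so handling, the arena and learning cannot be told apart. Irs2 rose in all 3 regimens, and Akt2 rose in NC and TRF mice and lay near the threshold in HFS mice. The members called were 4 of 10 in NC mice, where 5.73% of all genes were called (4.03% higher), 1 in HFS (1.23%, with 0.74% higher) and 2 in TRF mice (2.87%, with 2.24% higher). All were higher after training. The median log2 fold change of the members was 0.21, 0.09 and 0.18 in that order, against 0.00, 0.00 and -0.01 over all genes.

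Irs2 went from 118 to 152 CPM (median 125) at HC zt3 to 181 to 205 CPM (median 190) at ORM+1h in NC mice. In HFS mice it went from 120 to 145 CPM (median 133) to 178 to 210 CPM (median 184), and in TRF mice from 121 to 150 CPM (median 137) to 184 to 206 CPM (median 202). Every trained mouse was above every home cage mouse of its regimen. The log2 fold changes were 0.56 (SE 0.08, adjusted p = 2.53e-06), 0.53 (SE 0.08, adjusted p = 1.92e-05) and 0.56 (SE 0.08, adjusted p = 2.98e-06).

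These 3 calls held without each mouse in turn, with adjusted p up to 0.000236. The immediate early genes Fos, Arc, Egr1, Egr4, Npas4, Fosb and Junb, which neurons induce within minutes of activity, rose in all 7 cases in each regimen, with medians of 1.90, 1.45 and 1.81, and Irs2 was correlated with their score at r = 0.88 over the 71 mice, which share training groups. With the astrocyte score as a covariate the Irs2 differences were 0.73, 0.62 and 0.71 (adjusted p = 2.17e-07, 3.86e-07 and 1.02e-07).

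Akt2 went from 52.1 to 64.3 CPM (median 60.8) to 83.9 to 103 CPM (median 88.3) in NC mice, without overlap. In TRF mice it went from 53.9 to 75.6 CPM (median 60.8) to 75.0 to 94.7 CPM (median 79.7), and 5 of 6 trained mice exceeded all 6 in the home cage. In HFS mice the values were 50.2 to 80.4 CPM (median 59.5) and 67.8 to 86.2 CPM (median 81.4). The log2 fold changes were 0.60 (SE 0.10, adjusted p = 1.32e-05), 0.40 (SE 0.09, adjusted p = 0.00708) and, in HFS mice, 0.32 (SE 0.09, adjusted p = 0.0674). The value in HFS mice was called under 4 of 10 alternatives, the DESeq2 Wald test among them (0.33, adjusted p = 0.0220). The difference between HFS and NC mice in this change, tested as an interaction, was -0.27 (95% interval -0.54 to 0.00, adjusted p = 0.798).

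Astrocyte markers moved with Akt2. Of 6, 6 were called higher in NC, 0 in HFS and 5 in TRF mice, with median log2 fold changes of 1.47, 0.63 and 1.16. The markers thus rose in HFS mice as well, without a call. Their summed level went from 883 to 1120 CPM to 1890 to 3190 CPM in NC, from 707 to 2190 CPM to 1250 to 2960 CPM in HFS, and from 666 to 1530 CPM to 1430 to 2630 CPM in TRF mice. Akt2 was correlated with their score at r = 0.74 and with that of neuron markers at r = -0.68. With the astrocyte score as a covariate the Akt2 differences were 0.31 in NC (adjusted p = 0.101) and 0.17 in TRF mice (adjusted p = 0.476), and neither was called. The score itself rose from HC zt3 to ORM+1h in each regimen. In this fit, and in the others at ORM+1h with this score, its part and that of training cannot be told apart.

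**Figure D4:**
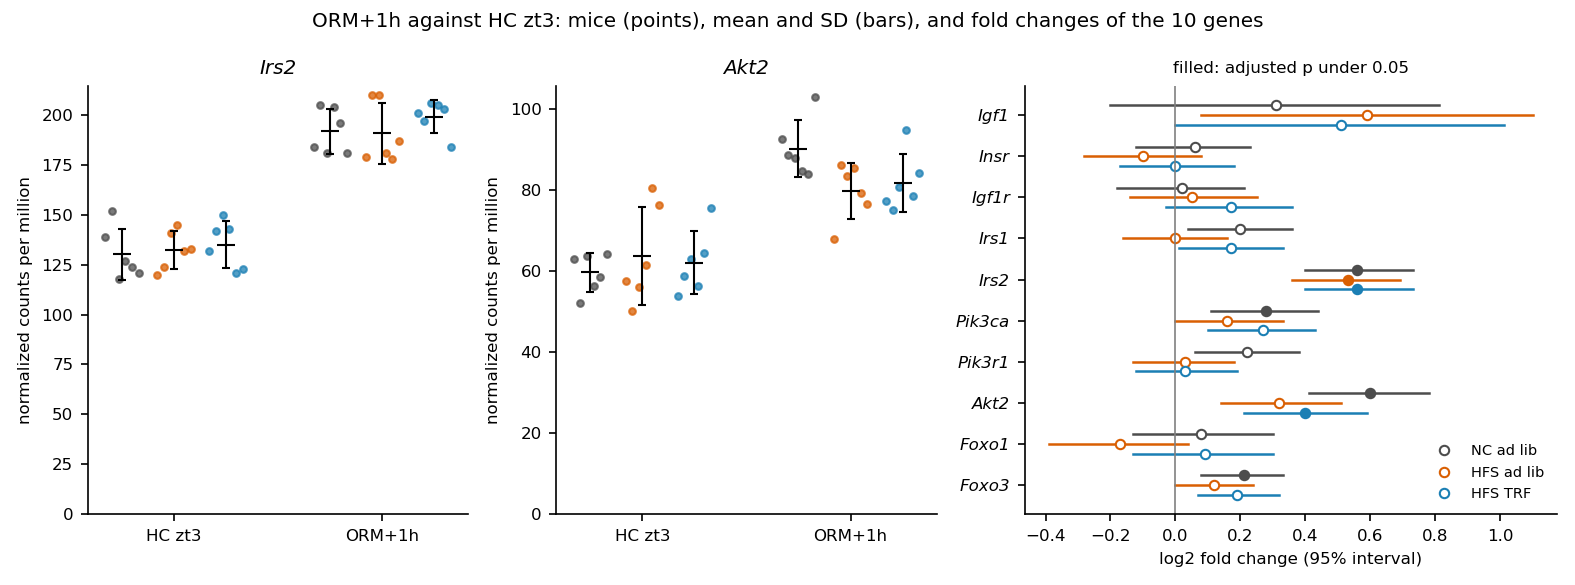
Left and middle, normalized CPM of Irs2 and Akt2 in each mouse (points) at HC zt3 and ORM+1h by regimen, with mean and SD, axes from 0. Right, log2 fold change of the 10 genes with 95% interval (filled points have an adjusted p under 0.05), in which Irs2 is filled for all 3 regimens.

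In NC mice 2 further members rose by smaller amounts. Pik3ca went from 36.4 to 43.6 CPM (median 39.1) to 43.2 to 54.4 CPM (median 48.1), with a log2 fold change of 0.28 (adjusted p = 0.0275). Foxo3 went from 62.5 to 71.8 CPM (median 66.4) to 72.1 to 85.6 CPM (median 76.6), without overlap, with 0.21 (adjusted p = 0.0295). The same differences were 0.16 and 0.12 in HFS mice (adjusted p = 0.366 and 0.372) and 0.27 and 0.19 in TRF mice (adjusted p = 0.0589 and 0.0711). In TRF mice the DESeq2 Wald test called both, with adjusted p of 0.0188 for Pik3ca and 0.0204 for Foxo3, and Pik3ca was called under 6 of 10 alternatives in all.

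Both of these calls in NC mice lay near the threshold. Pik3ca was lost without any of 6 mice (HC zt3 replicates 1, 2 and 4, ORM+1h replicates 2, 4 and 6), with log2 fold changes of 0.24 to 0.26 and adjusted p of 0.0651 to 0.101. Foxo3 was lost without any of 8 mice (HC zt3 replicates 1, 3, 4 and 5, ORM+1h replicates 1, 2, 3 and 6), with log2 fold changes of 0.17 to 0.21 and adjusted p of 0.0523 to 0.121, and with the astrocyte score as a covariate it was 0.07 (adjusted p = 0.8).

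The receptors did not pass in any regimen. The log2 fold changes in NC, HFS and TRF mice were 0.06, -0.10 and 0.00 for Insr and 0.02, 0.05 and 0.17 for Igf1r, with the adjusted p between 0.460 and 1. For Igf1 they were 0.31 in NC (adjusted p = 0.582), 0.59 in HFS (95% interval 0.08 to 1.10, adjusted p = 0.281) and 0.51 in TRF (95% interval 0.00 to 1.01, adjusted p = 0.348), at 1.31 to 1.72 CPM and 1.2 to 1.83 CPM after training. Foxo1 stood at 0.08, -0.17 and 0.09, and no difference between regimens in the response of any member was called, with 0% of all genes called in both interactions at ORM+1h, 1 and 0 members at an unadjusted p under 0.05 and 0 members called by the DESeq2 Wald test.

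Over all genes tested 5.73% were called after training in NC, 1.23% in HFS and 2.87% in TRF mice. The wider list had 9 genes higher and 4 lower after training in NC mice, 3 and 1 in HFS mice, and 7 and 0 in TRF mice, of 74. Sesn3, a sestrin induced by FoxO factors, rose in all 3, by 0.61 (adjusted p = 9.82e-07), 0.34 (adjusted p = 0.0258) and 0.41 (adjusted p = 0.00150) on the log2 scale. So did Klf15, a transcription factor of fasting metabolism, by 0.79 (adjusted p = 1.31e-05), 0.52 (adjusted p = 0.0157) and 0.50 (adjusted p = 0.0110). In NC mice Inppl1, the lipid phosphatase SHIP2, rose by 0.64 (adjusted p = 6.21e-05).

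Among the others named, Cdkn1a, a cell cycle inhibitor, rose by 0.82 in HFS (adjusted p = 0.0157) and 0.67 in TRF mice (adjusted p = 0.0431), and Igfbp5 by 0.62 in NC (adjusted p = 0.000714) and 0.53 in TRF mice (adjusted p = 0.00816). In NC mice the IGF-binding protein gene Igfbp6 (-0.49, adjusted p = 0.0129), the PI3-kinase regulatory subunit Pik3r2 (-0.19, adjusted p = 0.0202) and the neuronal FoxO factor Foxo6 (-0.35, adjusted p = 0.0286) were lower, and the ubiquitin ligase gene Fbxo32 was lower in NC (-0.46, adjusted p = 0.0479) and HFS mice (-0.64, adjusted p = 0.0109). The astrocyte markers that rose in the same comparisons are given above, and their part in the wider list was not tested.

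At 12 h after training 0 members were called in any regimen against HC zt15, with 0.209% of all genes called in NC, 0.179% in HFS and 2.46% in TRF mice. At an unadjusted p under 0.05 there were 2, 0 and 1, and the DESeq2 Wald test called 0. The 2 in NC mice were Pik3r1, at 51.9 to 69.1 CPM (median 55.6) in the home cage and 46.9 to 53.5 CPM (median 49.4) after training (-0.21, adjusted p = 0.205), and Foxo3 (0.15, adjusted p = 0.219). The 1 in TRF mice was Insr (0.19, adjusted p = 0.231). Irs2 was at 123 to 183 CPM (median 154) in trained NC mice against 123 to 189 CPM (median 155) in the home cage, and its differences were -0.03, -0.06 and -0.07, with intervals from -0.25 to 0.13 in all.

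In the wider list 2 genes were higher in NC mice, the mTOR inhibitor Tsc2 (0.34, adjusted p = 0.0301) and Pdpk1 (0.26, adjusted p = 0.0368). There were 0 calls in HFS mice by edgeR or DESeq2, with 10 at an unadjusted p under 0.05. In TRF mice 4 were lower and 0 higher by edgeR, against 4 lower and 4 higher by DESeq2. Over all genes DESeq2 called 1691 of 15532 in TRF mice. Among those lower by edgeR were the antioxidant enzymes and FoxO targets Cat (-0.58, adjusted p = 0.0278) and Sod2 (-0.21, adjusted p = 0.0360) and the mTOR-binding protein gene Deptor (-0.77, adjusted p = 0.0463). The interaction of diet with this response called 0 members between HFS and NC mice, where 0.106% of all genes were called, with 1 member, Foxo3, at an unadjusted p under 0.05 (-0.18, adjusted p = 0.242). Between TRF and HFS it called 0 members, with 0 at an unadjusted p under 0.05 and 0% of all genes called, and the DESeq2 Wald test called 0 members in both.

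The last comparison set home cage mice at zt15, in the dark phase, against those at zt3. Mice taken at HC zt3 came from the first experiment and those taken at HC zt15 from the second, so a difference by hour and one by experiment cannot be told apart. Irs1 and Foxo3 were higher at zt15 in all 3 regimens. The members called were 6 of 10 in NC mice, where 11.7% of all genes were called (5.18% higher), 2 in HFS (10.4%, with 3.88% higher) and 3 in TRF mice (14.2%, with 5.95% higher), all of them higher. The median log2 fold change of the members was 0.29, 0.15 and 0.26, against 0.00, -0.01 and 0.00 over all genes.

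Irs1 went from 14.5 to 18.1 CPM (median 15.4) at zt3 to 20.2 to 24.2 CPM (median 23.1) at zt15 in NC mice, without overlap. In HFS mice it went from 14.6 to 21.3 CPM (median 17.5) to 18.6 to 23.9 CPM (median 21.3), and in TRF mice from 14.1 to 20.2 CPM (median 17.2) to 17.3, 20.8, 22.8, 23.9 and 26.1 CPM in 5 mice. In both HFS regimens the ranges overlapped. The log2 fold changes were 0.53 (SE 0.08, adjusted p = 1.03e-06), 0.27 (SE 0.08, adjusted p = 0.0199) and 0.38 (SE 0.08, adjusted p = 0.000735).

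The smaller value of Irs1 in HFS mice was not called as a difference between regimens (interaction -0.26, 95% interval -0.48 to -0.03, unadjusted p = 0.0294 and adjusted p = 0.481 in edgeR's test). The call in HFS mice was lost without any of 5 mice (HC zt3 replicates 2, 3 and 4, HC zt15 replicates 3 and 4), with adjusted p of 0.0549 to 0.0863, and was 0.31 (adjusted p = 0.00859) without the mouse high in microglia markers.

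Foxo3 went from 62.5 to 71.8 CPM (median 66.4) to 77.1 to 99.6 CPM (median 89.7) in NC mice. In HFS mice it went from 59.0 to 77.2 CPM (median 67.8) to 81.3 to 93.6 CPM (median 87.2), and in TRF mice from 62.3 to 76.7 CPM (median 65.0) to 78.3, 81.3, 86.9, 90.2 and 93.1 CPM. There was no overlap in any regimen. The log2 fold changes were 0.42 (SE 0.06, adjusted p = 2.90e-07), 0.37 (SE 0.06, adjusted p = 6.29e-06) and 0.34 (SE 0.06, adjusted p = 5.53e-05), and each held without every mouse in turn, with adjusted p up to 0.000628.

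**Figure D5:**
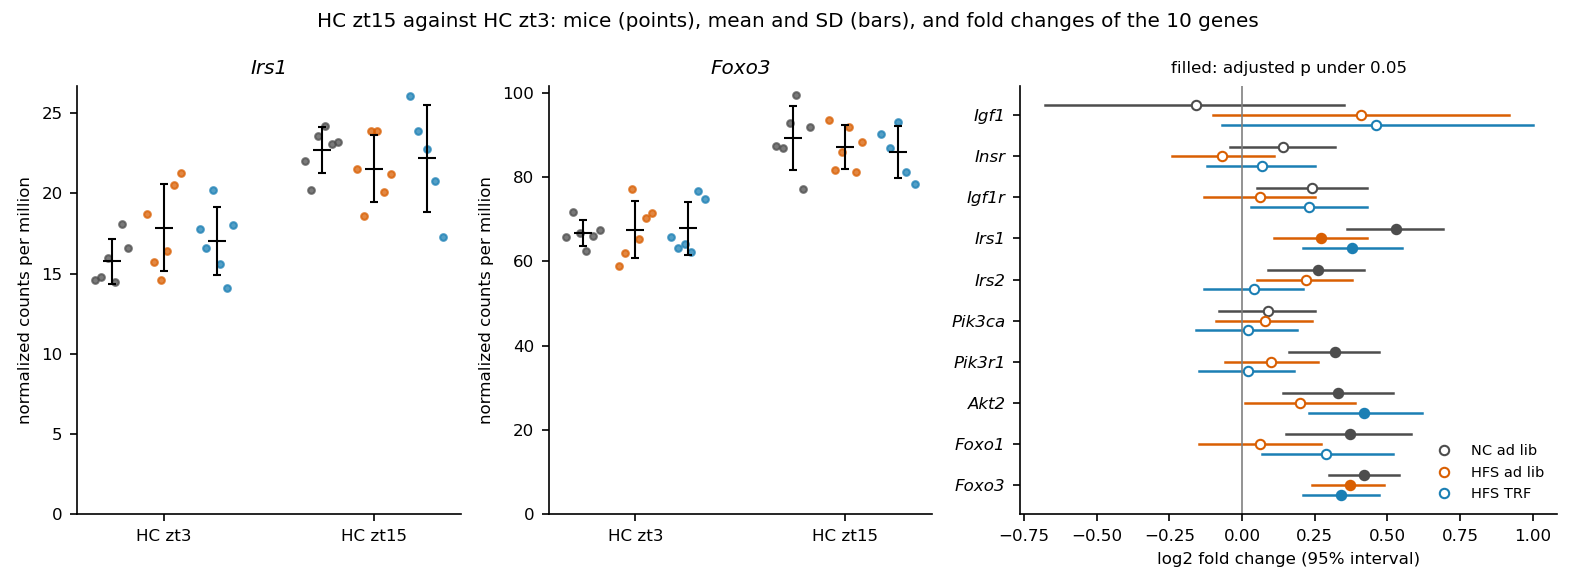
Left and middle, normalized CPM of Irs1 and Foxo3 in each mouse (points) in the home cage at zt3 and zt15 by regimen, with mean and SD, axes from 0. Right, log2 fold change of the 10 genes with 95% interval (filled points have an adjusted p under 0.05), with Irs1 and Foxo3 filled in all 3 regimens.

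Markers of cell types moved with these genes. Dentate granule cell markers were called higher at zt15 in 3 of 4 cases in NC, 1 of 4 in HFS and 0 of 4 in TRF mice. Their median log2 fold changes were positive in each regimen, at 0.41, 0.27 and 0.31. Their summed levels were 136 to 165, 110 to 185 and 141 to 162 CPM at zt3 and 153 to 276, 164 to 229 and 157 to 210 CPM at zt15. CA1 pyramidal cell markers were called lower in 3, 2 and 3 of 4 cases. Astrocyte markers were called higher in 6, 2 and 5 of 6 cases, with medians of 1.15, 0.61 and 1.19. With the dentate granule cell score as a covariate Foxo3 stood at 0.34, 0.32 and 0.29 (adjusted p = 7.61e-05, 6.83e-05 and 0.000326) and Irs1 at 0.43, 0.22 and 0.32 (adjusted p = 0.000144, 0.0595 and 0.00404), so that the Irs1 call in HFS mice was lost. The dentate and astrocyte scores themselves were higher at zt15 in each regimen. Their part and that of time cannot be told apart in these fits or in those below.

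Akt2 was higher at zt15 in NC mice, at 60.3 to 94.6 CPM (median 73.1) against 52.1 to 64.3 CPM at zt3, and in TRF mice, at 69.9, 72.8, 87.0, 87.0 and 99.0 CPM against 53.9 to 75.6 CPM. In NC 5 of 6 and in TRF mice 3 of 5 were above every mouse at zt3. The log2 fold changes were 0.33 (adjusted p = 0.0133) and 0.42 (adjusted p = 0.00123), and 0.20 in HFS mice (adjusted p = 0.178). In NC mice the call was lost without HC zt15 replicate 2 (0.25, adjusted p = 0.0889). With the astrocyte score as a covariate the differences in NC and TRF mice were 0.11 (adjusted p = 0.529) and 0.19 (adjusted p = 0.260).

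The other 3 calls were in NC mice. Pik3r1 went from 43.3 to 49.8 CPM (median 45.8) to 51.9 to 69.1 CPM (median 55.6), without overlap (0.32, adjusted p = 0.00317). Foxo1 went from 30.7 to 41.9 CPM (median 39.6) to 39.0 to 61.9 CPM (median 48.7), with 5 of 6 mice above all mice at zt3 (0.37, adjusted p = 0.0139). Irs2 went from 118 to 152 CPM to 123 to 189 CPM (median 155), with 3 of 6 above all (0.26, adjusted p = 0.0298).

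With the astrocyte score as a covariate Pik3r1 stood at 0.16 (adjusted p = 0.251) and Foxo1 at 0.13 (adjusted p = 0.527), and neither was called, while Irs2 stood at 0.38 (adjusted p = 0.00157). Foxo1 was also lost without HC zt3 replicate 4 or HC zt15 replicate 1 (adjusted p = 0.0607 to 0.0741). Irs2 was lost without any of 7 mice (HC zt3 replicates 3, 4, 5 and 6, HC zt15 replicates 4, 5 and 6), with adjusted p of 0.0579 to 0.125.

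In HFS and TRF mice these genes had log2 fold changes of 0.10 and 0.02 for Pik3r1 (adjusted p = 0.467 and 0.949), 0.06 and 0.29 for Foxo1 (adjusted p = 0.825 and 0.0696) and 0.22 and 0.04 for Irs2 (adjusted p = 0.0810 and 0.836). In the DESeq2 Wald test Foxo1 in TRF mice (0.31, adjusted p = 0.0399) and Irs2 in HFS mice (0.23, adjusted p = 0.0485) were called, and Irs2 in HFS mice also passed with the astrocyte score (0.31, adjusted p = 0.00787) and the dentate score (0.25, adjusted p = 0.0401). None of these differences between regimens was called. The interaction of HFS against NC was -0.22 for Pik3r1, -0.31 for Foxo1 and -0.04 for Irs2 (adjusted p = 0.544, 0.526 and 1), and in both interactions of time with regimen 0% of all genes and 0 members were called, with 2 and 0 members at an unadjusted p under 0.05 and 0 called by the DESeq2 Wald test. The receptors and Igf1 did not pass in any regimen, Igf1r having 0.24, 0.06 and 0.23 (adjusted p = 0.0961, 0.793 and 0.12). With the astrocyte score as a covariate Igf1r was called in NC (0.36, adjusted p = 0.0222) and TRF mice (0.37, adjusted p = 0.0271).

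Of the 74 wider pathway genes, 10 were higher and 0 lower at zt15 in NC mice, 10 and 1 in HFS, and 11 and 2 in TRF mice. Over all genes tested 11.7%, 10.4% and 14.2% were called in that order (5.18%, 3.88% and 5.95% higher). The DESeq2 Wald test called 11 and 1, 15 and 1, and 12 and 2 of the list. Over all genes it called 3916, 3513 and 4702 of 24294. Rps6, the gene of the S6 protein whose phosphorylated form was the bait, rose by 0.20 in NC (adjusted p = 0.0348), 0.36 in HFS (adjusted p = 2.37e-05) and 0.45 in TRF mice (adjusted p = 5.17e-07). Mtor, the kinase of both mTOR complexes, was lower in both HFS regimens, with log2 fold changes of -0.34 (adjusted p = 0.00208) and -0.26 (adjusted p = 0.0307), and Tsc2 was lower in TRF mice (-0.25, adjusted p = 0.0233). Neither was called in NC mice. A difference between regimens was not called for them, with 0% of all genes called in both interactions of time with regimen.

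Foxo4 rose by 0.68, 0.48 and 0.53 in NC, HFS and TRF mice (adjusted p = 1.32e-06, 0.000873 and 0.000306), Klf15 by 0.68, 0.61 and 0.53 (adjusted p = 4.59e-05, 0.000234 and 0.00216) and Igfbp5 by 0.71, 0.56 and 0.74 (adjusted p = 2.73e-05, 0.00118 and 2.98e-05). In NC and TRF mice Sesn3 rose by 0.50 and 0.34 (adjusted p = 8.50e-06 and 0.00464) and Inppl1 by 0.64 and 0.59 (adjusted p = 2.19e-05 and 0.000157). In HFS mice Sesn3 stood at 0.23 (adjusted p = 0.0775) and Inppl1 at 0.30 (adjusted p = 0.0796). Without the HFS mouse high in microglia markers 9 genes were higher and 2 lower in HFS mice. Rps6 then stood at 0.31, Mtor at -0.31, Foxo4 at 0.54, Klf15 at 0.61 and Igfbp5 at 0.65, and all 5 were called (adjusted p up to 0.00905). Sesn3 (0.28, adjusted p = 0.0281) and Inppl1 (0.35, adjusted p = 0.0459) were called in HFS mice only without that mouse. Ptpn1, Shc1 and Txnip were called only with it. In that comparison 3 of 6 microglia markers were called higher at zt15 with the mouse and 0 without it. The medians over the 74 genes were 0.11, 0.06 and 0.08, against 0.00, -0.01 and 0.00 over all genes.

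Across the 71 mice the genes whose log2 CPM followed each member most closely, among 14658 genes with a mean of at least 1 CPM, are given as a description, since mice share groups and libraries. For Irs2 they were Nr4a2, Fosl2 and Egr1, all at r = 0.90 and all genes that neuronal activity induces. For Akt2 they were Nwd1 (0.90), Prdm16os (0.87) and Pttg1ip (0.86). For Irs1 they were Pdzd2 (0.85), Epb41 (0.77) and Pabpc1 (0.76).

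For Foxo3 they were Zhx3 (0.83), Yy1 (0.81) and Spen (0.80), and for Foxo1 Eef2k (0.72), Nfkbia (0.70) and the clock gene Nr1d1 (0.70). For Igf1r they were the potassium channel gene Kcnh1 (0.83), Traf3 (0.79) and Clmn (0.78), and for Insr Ssr1 (0.73), Nlgn3 (0.71) and Tm7sf3 (0.68). For Pik3ca they were Kdm7a (0.81), Rmnd5a (0.79) and Tmed8 (0.79), and for Pik3r1 Dbt (0.70) and Lss (0.69). The values for Igf1, with Ccdc134 (0.54), Ier2 (0.52) and Mindy2 (0.52), were the lowest, at its low counts.

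Among the members themselves, the highest correlation over the 71 mice was that of Irs1 with Foxo3 (r = 0.73), followed by Foxo1 with Foxo3 (0.58) and Irs2 with Pik3ca (0.52). The receptors Insr and Igf1r stood at 0.48. The adaptors Irs1 and Irs2 stood at 0.01, and the PI3-kinase partners Pik3ca and Pik3r1 at 0.00.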

How the data were processed

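RNA was measured in 71 pS6-TRAP libraries of mouse hippocampus. The authors trimmed reads with Trim Galore (0.6.7, cutadapt 3.4), aligned them to the mouse genome with HISAT2 (2.2.0) and deposited featureCounts (Subread 2.0.3) counts per gene, unnormalized. GRCm39 is the build of the methods, the submitters' notes also name mm9 without a role, and the strand setting is not given in the sources used here. The study's methods name 73 samples, of which 71 were analysed. Total counts were 34698914 to 62758570 per mouse, so precision of all members but Igf1 was set by the spread between mice. Every column of the table had a sample (0 without).

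Genes with at least 10 counts in total were kept. Groups follow the labels, with TRF taken from the diet entry, since the titles of those mice also call them ad libitum. All 12 groups were fitted in one model with TMM normalization and edgeR's quasi-likelihood test (edgeR 4.0.16, R 4.3.3), and p-values were adjusted over all genes tested (Benjamini-Hochberg). The authors used DESeq2, which served here as an alternative (1.42.0). RPKM used summed exon lengths, and log2 CPM a prior count of 2. The fitting steps were tested on simulated data. Replicate numbers were checked for pairing, and in 0 of 21 pairs of groups did every same-numbered pair of mice correlate above 0.1, so no block was used. The median r of same-numbered mice ran from -0.30 (NC and TRF, HC zt15) to 0.42 (HFS and TRF, ORM+1h). This check cannot tell whether some of the mice were paired.

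The members and gene lists were chosen with earlier results of these data known. All members were named in every comparison. Of the wider list, up to 3 genes per direction with the smallest adjusted p under 0.05 were named per comparison, with their calls in other regimens added. For likeness, the 3 genes with the highest Pearson correlation were named, except 1 that is not reported here. DESeq2 calls in the wider list, and its values and those of the microglia markers without HFS ad lib HC zt15 replicate 2, were added after seeing the data. Other alternatives were DESeq2's size factors, other filters on low counts, a replicate block, fits of only the groups compared, marker scores as covariates and leaving out each mouse.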

Additional observations from a re-analysis of the deposited data

Results flagged for a closer look

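In 6 of 120 combinations of member and group, 1 mouse lay farther from the others than Dixon's 95% limit, a rate that chance alone gives in about 1 of 20 groups. Igf1r was at 71.9 CPM in HFS TRF HC zt15 replicate 3, with the nearest mouse at 53.0 CPM. Irs1 was at 19.7 CPM in NC ad lib ORM+1h replicate 1, with the nearest at 17.9 CPM. Pik3ca was at 33.8 CPM in NC ad lib ORM+12h replicate 1 (nearest 45.8 CPM) and at 38.3 CPM in HFS TRF HC zt15 replicate 3 (nearest 42.4 CPM). Pik3r1 was at 32.5 CPM in HFS TRF ORM+12h replicate 4 (nearest 44.5 CPM), and Foxo1 at 36.6 CPM in NC ad lib ORM+12h replicate 6 (nearest 45.8 CPM).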

How the results depend on the processing

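Of 300 values of members, 21 were called and 0 reversed under 10 alternatives, and 7 of the 21 kept their call in all. Of the others, 11 were called under at least 1. DESeq2 and the replicate block kept 21, DESeq2's size factors, a minimum of 1 count, filterByExpr and a choroid plexus score 20, fits of only the groups compared 18, a dentate granule cell score 16, the block within each condition 14 and an astrocyte score 11. The scores for dentate granule cells and astrocytes were chosen after seeing the data. Members called in HFS ad lib against NC ad lib over 4 conditions went from 2 to 1 with the astrocyte or the dentate score, the 1 being Pik3ca with the latter, and to 3 with DESeq2 or the block within each condition. Within conditions they went from 1 to 0 with DESeq2's size factors, a minimum of 1 count, the choroid plexus, astrocyte or dentate score, or only the groups compared. For HFS TRF against NC ad lib they went from 0 to 1 over 4 conditions (block within each condition) and within conditions (DESeq2, filterByExpr, block within each condition). For ORM+1h they went from 7 to 3 with the block within each condition, and to 10 with DESeq2 and 9 with filterByExpr or only the groups compared. Without each mouse in turn the counts were 1 to 3 and 0 to 1 for HFS ad lib against NC ad lib over and within conditions, 0 to 2 for HFS TRF against NC ad lib within conditions, 5 to 8 for ORM+1h and 9 to 12 for HC zt15, where 11 were called, and 0 to 0 for the others. The replicate block changed none of the 21 calls, while the block within each condition kept 14. Whether the numbers pair some of the mice was not settled. The causes were not tested. Igf1, at 30 to 150 counts per mouse, was the member whose depth limited precision.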
